A study of Mus musculus with 8 samples.

Results

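The data describe how far the glucose response of cultured mouse muscle cells depended on Baf60c. The quantity is a difference of differences, called the interaction here: the change from 1 to 10 mM glucose in Baf60c knockdown myotubes minus the same change in control myotubes. It drew on all 8 of the 8 samples in the series. The cells were C2C12, a single immortalised mouse myoblast line that fuses into multinucleated myotubes in culture. Control cells carried a retrovirus labelled siScramble, and knockdown cells carried one with an shRNA against mouse Baf60c. After differentiation, both were held for 12 h in medium with glucose at 1 or 10 mM, and total RNA was hybridised to Affymetrix Mouse Gene ST 2.1 arrays. Each of the 4 groups had 2 samples, described by the submitters as independent biological replicates. All groups therefore share 1 line, viral transduction and myotube differentiation, and no untransduced cells were analysed here. These are bulk samples, in which fewer myotubes and less RNA per myotube cannot be told apart.

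BAF60c, encoded by Smarcd3, is a subunit of the BAF (SWI/SNF) complexes, which use ATP to move or eject nucleosomes. In muscle precursors it binds the myogenic factor MyoD and helps to open muscle gene promoters, and in adult muscle it has been linked to fast glycolytic fibres, partly through Deptor, an inhibitor of mTOR. Glucose reaches muscle transcription through several routes. One is the MondoA and Mlx factor pair, which glucose phosphates activate and of which Txnip is a target. A lack of glucose also impairs protein glycosylation and so engages the unfolded protein response and the amino acid response driven by ATF4. An interaction above 0 means that the response to the higher glucose level lay further toward induction in knockdown cells, whether through a larger rise or a smaller fall.

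Values are log2 expression after RMA, and each pair is given with replicate 1 first. In counts of list members or of all genes, rose and fell mean called at a limma adjusted p under 0.05. Where 4 values of a cell population are given, the pair before "then" is at 1 mM glucose and the pair after it at 10 mM. Replicate arrays correlated at 0.987 to 0.990 across genes, and arrays of different groups at 0.939 to 0.984. The array medians lay between 5.89 and 6.02. Smarcd3 was measured by a single probe set that also covers Chpf2, an enzyme of chondroitin synthesis, so the share of each gene in its signal is not resolved. That probe set read 5.62 and 5.40 in control cells at 1 mM, 6.27 and 6.09 in control cells at 10 mM, 3.01 and 2.77 in knockdown cells at 1 mM, and 3.90 and 4.49 in knockdown cells at 10 mM. Every knockdown array lay below every control array. The knockdown difference was -2.62 at 1 mM, a 6.15-fold reduction, and -1.98 at 10 mM, a 3.95-fold reduction. The interaction of the target probe set was 0.64 ± 0.30 (SE, n = 2 per group; 95% interval -0.07 to 1.35, limma adjusted p = 0.673).

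No gene passed the interaction test. With limma, 0 of 13308 genes (0%) had an adjusted p under 0.05, and the smallest adjusted p was 0.235, shared by 9 genes. At an unadjusted p under 0.05 there were 1049 genes (7.88%), of which 647 (4.86%) had an interaction above 0 and 402 (3.02%) one below 0. The share above 0 among them was 61.7%. The median of all genes was 0.04, and centring every array on its median gave 524 above and 524 below, a share of 50%. With an intensity trend and robust variances, limma called 1 gene, Thbs1, at an adjusted p of 0.0104. In the fit as used throughout, its adjusted p was 0.336. The precision was limited by 2 samples per group: the median SE of the interaction was 0.245, and the median 95% interval reached 0.574 to either side of the estimate. For 8929 genes (67.1%) the 95% interval lay inside a 2-fold difference in either direction, and for 13 genes it lay wholly beyond 2-fold.

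The 647 genes above 0 at an unadjusted p under 0.05 were of several kinds by their mean values. In 251 of them the mean was higher at 10 mM in both cell populations, in 105 it was lower in both, and in 291 the signs differed. Among the 402 genes below 0 these counts were 116, 77 and 209. Interactions of at least 2-fold numbered 140 above and 107 below 0. A mean below 3 in at least 1 group, which is close to the dimmest tested genes, occurred in 167 and 152 of the genes.

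**Figure D1:**
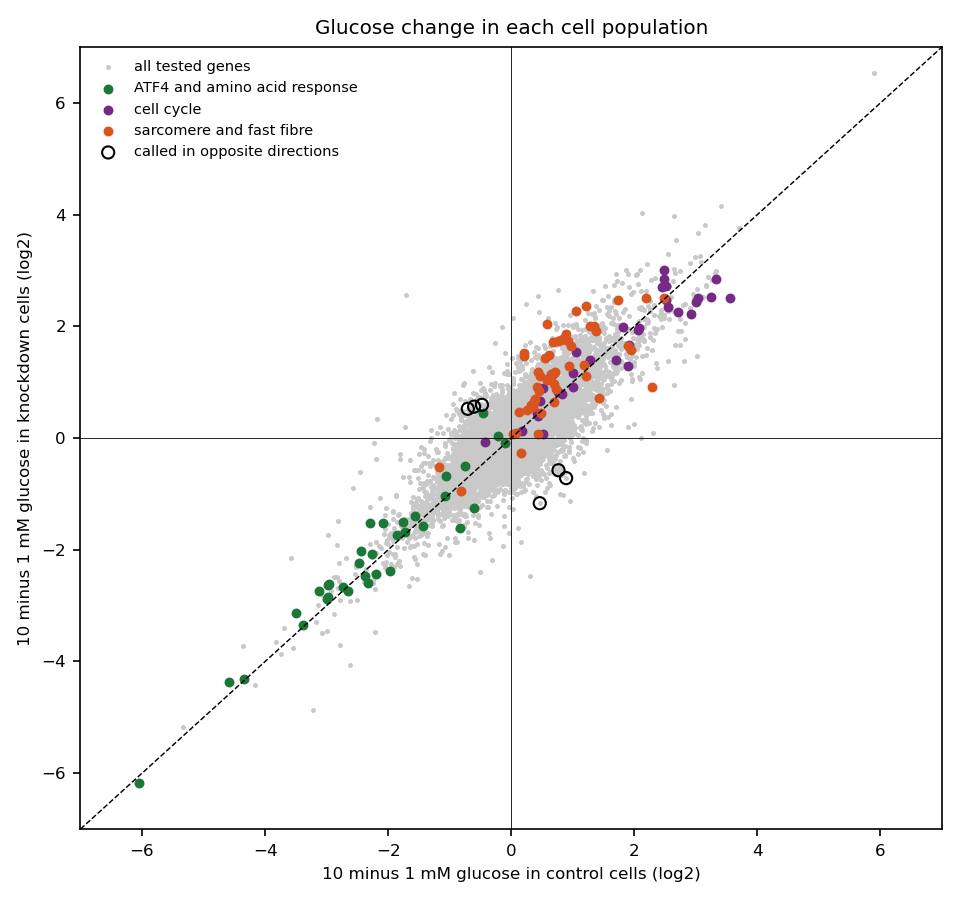
Glucose response in control myotubes (horizontal axis, log2 difference of 10 mM minus 1 mM) against that in knockdown myotubes (vertical axis), 1 point per gene for the 13308 genes tested, with genes on the dashed diagonal having an interaction of 0. Green, purple and orange points mark the ATF4, cell cycle, and sarcomere and fast fibre lists, and open circles the 6 genes called in opposite directions. The points are means over 2 samples per group; most lie near the diagonal, and none passed the interaction test after adjustment.

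The large glucose responses of stress genes lay close together in control and knockdown cells. In the list of 34 tested ATF4 and amino acid response genes, 30 fell at the higher glucose level in control cells (12.1% of all genes fell) and 31 in knockdown cells (10.6% of all genes fell). The median changes were -2.29 and -2.16. Over all genes, glucose calls numbered 3372 (25.3%) in control and 3342 (25.1%) in knockdown cells. The first count was 2192 or 2051 without the first or second control array at 1 mM and 2057 without the second at 10 mM, and the second count was 1894 or 2061 without the first or second knockdown array at 10 mM. The median interaction of the 34 ATF4 list genes was 0.12 (0.076 to 0.18 over the alternatives), against 0.04 for all genes. Of the 34, 26 had a 95% interval inside 2-fold, against 67.1% of all genes. All 23 tested endoplasmic reticulum chaperone and unfolded protein response genes fell in both, with median changes of -1.64 and -1.61 and a median interaction of -0.03, which changed sign between alternatives (-0.085 to 0.053). In that list, 21 of 23 intervals lay inside 2-fold, against 67.1% of all genes. Of 17 tested genes in the list of NRF2 and the pentose phosphate pathway, 13 fell in control and 11 in knockdown cells. Their median interaction was 0.18 (0.13 to 0.27 over the alternatives).

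Single members of these lists differed more. Slc1a4, a neutral amino acid transporter, had the smallest unadjusted interaction p of the ATF4 list. It read 9.15 and 9.17 at 1 mM and 6.98 and 6.74 at 10 mM in control cells, and 9.05 and 8.80 then 7.37 and 7.45 in knockdown cells. It fell in both, and the interaction was 0.79 ± 0.21 (adjusted p = 0.473). Stc2, a secreted glycoprotein, and Sars, the seryl-tRNA synthetase, had interactions of -0.78 ± 0.25 and 0.57 ± 0.20, neither of them called. Ero1b, an oxidase that helps form disulphide bonds in the endoplasmic reticulum, read 6.31 and 6.23 then 4.48 and 4.82 in control cells. In knockdown cells it read 6.43 and 7.11 then 4.07 and 4.45. Knockdown arrays lay above the controls at 1 mM and below them at 10 mM, and the interaction was -0.88 ± 0.35 (adjusted p = 0.599). Neither knockdown difference of Ero1b was called.

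Gclm, the modifier subunit of glutamate-cysteine ligase, led the NRF2 list. It read 8.77 and 8.92 then 6.85 and 6.73 in control cells, and 8.54 and 8.53 then 6.90 and 6.92 in knockdown cells. Its interaction was 0.43 ± 0.18 (adjusted p = 0.616). Pgd, an enzyme of the pentose phosphate pathway, had an interaction of 0.42 ± 0.18. Both fell with glucose in both cell populations, and for Gclm the knockdown arrays lay below the controls at 1 mM and above them at 10 mM. Neither knockdown difference of Gclm was called.

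The glucose sensor genes gave no called interaction either. Txnip, the arrestin-like protein that limits glucose uptake, read 4.17 and 3.79 at 1 mM and 9.97 and 9.77 at 10 mM in control cells. In knockdown cells it read 3.55 and 4.24, then 10.36 and 10.51. It rose by 5.89 and by 6.54 on the log2 scale, and the interaction was 0.65 ± 0.35 with a 95% interval of -0.16 to 1.46 (adjusted p = 0.704). Of 19 tested genes of glucose sensing, MondoA and glucose uptake, 6 rose and 4 fell in control cells and 7 rose and 5 fell in knockdown cells. Across all genes, 13.2% rose and 12.1% fell in control cells, and 14.5% rose and 10.6% fell in knockdown cells. The median interaction of these 19 was 0.04 and changed sign between alternatives (-0.035 to 0.097). Of their intervals, 9 lay inside 2-fold, against 67.1% of all genes.

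Gfpt1, the first enzyme of the hexosamine pathway, read 7.54 and 7.81 then 7.66 and 7.90 in control cells, and 8.31 and 8.40 then 7.84 and 7.81 in knockdown cells. It fell in knockdown cells (log2 change -0.53, adjusted p = 0.0416), while the change in control cells was 0.11 and not called. Its interaction was -0.63 ± 0.21 (adjusted p = 0.585). Slc2a8, an intracellular hexose transporter, had an interaction of 0.95 ± 0.38. Slc2a4, the insulin-responsive glucose transporter, was dim and variable, at 3.08 and 3.81 then 3.89 and 3.04 in control cells and 2.09 and 3.72 then 2.39 and 2.01 in knockdown cells. Its interaction was -0.72 ± 0.76 with an interval of -2.50 to 1.05, and it became 0.092 without the second knockdown sample at 1 mM, so no direction can be read for it.

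Contractile genes had the largest list medians. Of 34 tested genes of myogenic differentiation and the sarcomere, 11 had an interaction above 0 at an unadjusted p under 0.05, against 4.86% of all genes, and 1 had one below 0. The interaction lay above 0 in 26 of the 34, against 55.7% of all genes. Their median was 0.33, ranging from -1.38 to 1.31. None was called after adjustment. Of these genes, 17 rose and 2 fell with glucose in control cells, and 26 rose and 1 fell in knockdown cells. Over all genes, 13.2% rose and 12.1% fell in control cells, and 14.5% rose and 10.6% fell in knockdown cells. At 1 mM glucose, 23 of the 34 were called lower in knockdown than in control cells (1.25% of all genes). At 10 mM, 14 were called lower (0.691% of all genes). By sign alone, 34 lay below the controls at 1 mM and 32 at 10 mM, against 7242 and 6453 of all 13308 genes. The median knockdown difference of the list was -1.13 at 1 mM and -0.86 at 10 mM. The list median per array was 7.25 and 7.32 in control cells at 1 mM and 7.75 and 7.74 at 10 mM, against 5.58 and 5.79 then 7.08 and 6.82 in knockdown cells.

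Leaving out any 1 of the 8 arrays lowered the counts of knockdown calls by more than 1.5 times. Over all genes, 198 (1.49%) were called at 1 mM and 149 (1.12%) at 10 mM, in either direction, of which 167 and 92 were lower in knockdown cells. Without 1 of the 4 arrays at 1 mM the first count was 60, 30, 110 or 77 (control replicates 1 and 2, then knockdown replicates 1 and 2). Without 1 of the 4 arrays at 10 mM it was 123, 125, 129 or 129. The count at 10 mM was 28, 36, 76 or 77 without 1 of the arrays at 1 mM, in the same order. It was 11 without the first control array at 10 mM and 0 without the second or without either knockdown array at 10 mM.

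Fast fibre genes showed the same direction. Of 18 tested, 9 had an interaction above 0 at an unadjusted p under 0.05 (4.86% of all genes). None of the 18 had one below 0 at that p (3.02% of all genes). The interaction was above 0 in 16 of 18, and the median was 0.51, ranging from -0.70 to 1.47. With glucose, 10 rose in control cells (13.2% of all genes) and 14 in knockdown cells (14.5%). In knockdown cells 10 were called lower at 1 mM (1.25% of all genes) and 4 at 10 mM (0.691%). By sign alone, 16 of the 18 lay below the controls at 1 mM and 16 at 10 mM. Over all 13308 genes these counts were 7242 and 6453. The count of 9 became 5 or 4 without the first or second control array at 1 mM, and 4 without the first control array at 10 mM. It became 3 without the first knockdown array at 1 mM and 3 without the second knockdown array at 10 mM. Over all the fits that left out 1 array, the median stayed between 0.48 and 0.70. The target probe set behaved alike in sign, with a knockdown difference of -2.62 at 1 mM and -1.98 at 10 mM, and its part in the muscle gene values was not tested.

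**Figure D2:**
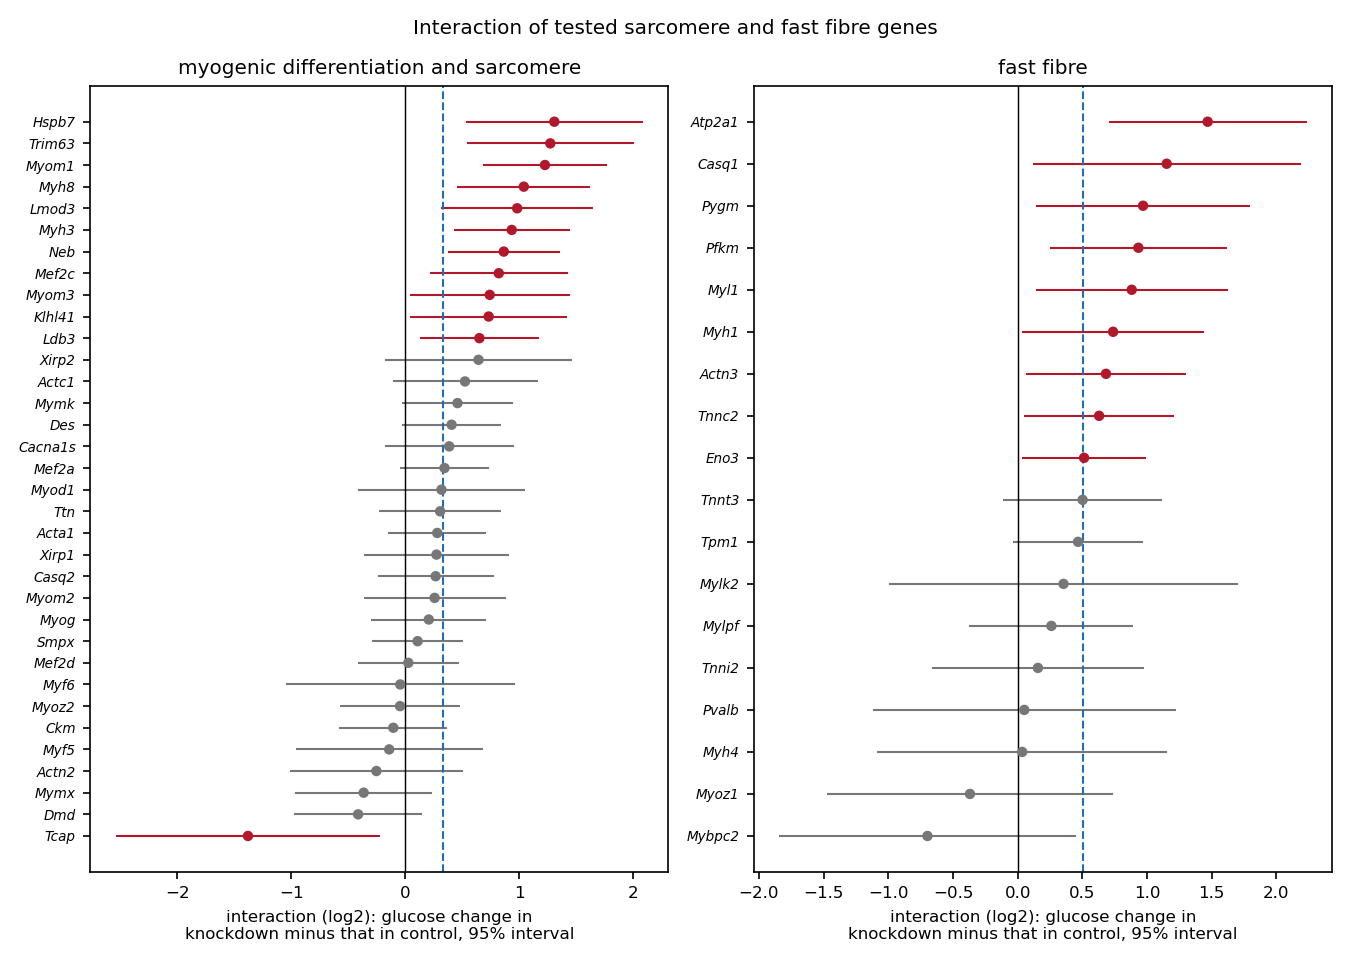
Interaction (log2, point) with its 95% interval (line) for the tested genes of the 2 contractile gene lists, ordered by size, in red where the unadjusted p was under 0.05 and grey otherwise; the black line at 0 marks equal glucose responses and the dashed line the list median. Points lie above 0 for 26 of 34 and 16 of 18 genes, many intervals cross 0, and no gene passed the adjusted test.

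The leading gene of the sarcomere list by p was Myom1, which encodes myomesin, a crosslinker of the M band. It read 5.98 and 6.22 in control cells at 1 mM and 6.99 and 7.31 at 10 mM, against 3.16 and 3.02 then 5.33 and 5.42 in knockdown cells. The 4 groups did not overlap. Myom1 rose by 1.05 with glucose in control and by 2.28 in knockdown cells, and the interaction was 1.23 ± 0.23 (95% interval 0.69 to 1.76, adjusted p = 0.389). The knockdown difference was -3.0 at 1 mM and -1.78 at 10 mM, both called. Myh3 and Myh8, the embryonic and perinatal myosin heavy chains, had interactions of 0.94 ± 0.21 and 1.04 ± 0.25. A second probe set of Myh8 had a mean below the filter and an interval of -1.99 to 0.55, so it gives no direction.

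Atp2a1, the fast-fibre calcium pump SERCA1, led the fast fibre list. Its values were 7.77 and 8.07 then 8.24 and 8.75 in control cells, and 5.37 and 4.89 then 7.23 and 7.12 in knockdown cells. Knockdown arrays lay below control arrays at both glucose levels, with the wider gap at 1 mM. The glucose change was 0.58 in control cells and not called (adjusted p = 0.109), and it was 2.05 in knockdown cells (adjusted p = 0.000916). The interaction was 1.47 ± 0.32 (95% interval 0.71 to 2.23, adjusted p = 0.417). Pfkm, the muscle phosphofructokinase, had an interaction of 0.93 ± 0.29. Myl1, a fast myosin light chain, had one of 0.88 ± 0.31.

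Further members, chosen after their values were seen, show the spread within these lists. Hspb7, a small heat shock protein of muscle, had an interaction of 1.31 ± 0.33. Trim63, the ubiquitin ligase MuRF1, had one of 1.27 ± 0.31, with 5.09 and 4.93 then 5.19 and 5.23 in control cells and 3.92 and 3.35 then 5.31 and 4.91 in knockdown cells. Knockdown arrays of Trim63 lay below the controls at 1 mM and spanned them at 10 mM. Neb, the thin-filament ruler nebulin, had an interaction of 0.87 ± 0.21. The myogenic factors Myod1 and Myog had smaller values, 0.32 ± 0.31 and 0.21 ± 0.21. Myh4, the fastest adult myosin, had 0.03 ± 0.48, with an interval of -1.08 to 1.15, although it rose in both cell populations. Tcap, the titin cap protein, went the other way at -1.38 ± 0.49. It rose in control cells, and in knockdown cells its change of 0.91 was not called.

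Promoter windows are shown for 3 contractile genes because they include the E-box form CAGCTG, a motif to which myogenic basic helix-loop-helix factors bind. They are the genes with the smallest unadjusted interaction p, among those above 0 at p under 0.05, whose window held it. Each is the 250 bases before the RefSeq transcript start on GRCm38.p6, written 5′ to 3′ on the gene's strand, with capitals marking the motif.
Atp2a1, chr7:126463074-126463323, minus strand: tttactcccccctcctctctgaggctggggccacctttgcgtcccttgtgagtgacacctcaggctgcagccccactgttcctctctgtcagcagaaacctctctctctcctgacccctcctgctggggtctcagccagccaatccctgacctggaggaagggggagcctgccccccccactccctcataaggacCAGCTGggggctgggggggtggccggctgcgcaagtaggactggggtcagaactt
Trim63, chr4:134314870-134315119, plus strand: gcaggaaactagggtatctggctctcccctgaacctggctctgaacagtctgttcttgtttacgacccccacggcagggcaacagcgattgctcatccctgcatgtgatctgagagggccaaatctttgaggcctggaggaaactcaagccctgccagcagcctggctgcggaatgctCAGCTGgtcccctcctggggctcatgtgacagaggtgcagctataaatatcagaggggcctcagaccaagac
Myl1, chr1:66945057-66945306, minus strand: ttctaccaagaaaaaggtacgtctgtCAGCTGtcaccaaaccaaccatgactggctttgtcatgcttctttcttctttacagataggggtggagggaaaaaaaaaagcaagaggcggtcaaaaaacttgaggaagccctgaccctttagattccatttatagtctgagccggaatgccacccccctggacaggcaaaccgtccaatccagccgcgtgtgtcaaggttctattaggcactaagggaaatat
The motif's first base lay 55, 72 and 224 bases before the start, in that order. Of the 52 tested genes of the sarcomere and fast fibre lists, 38 had a window, some with several starts. CAGCTG, which reads the same on both strands, was in 13 of their 46 windows (28.3%), against 13% of all 32851 windows. Among the genes above 0 at an unadjusted p under 0.05 it was in 6 of 23 windows (26.1%). CACGTG, the E-box core that MondoA-type factors read, was in 4.35% of the muscle windows and 6.02% of all windows. CTAAAAATA, a form of the site that MEF2 factors read, searched on both strands, was in 2 of the 46 muscle windows (4.35%) and in 0.469% of all windows. It was in 0 of the 23 windows of the genes above 0. These matches describe the letters of the windows and are not measured binding sites.

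Slow and oxidative fibre genes had a median close to 0. Of 15 tested, 3 had an interaction above 0 (4.86% of all genes) and 1 below 0 (3.02%) at an unadjusted p under 0.05. By sign alone 7 lay above 0. The median was -0.01, which moved between -0.055 and 0.12 over the alternatives. Myh7, the slow myosin heavy chain, had an interaction of 0.58 ± 0.20, and Tnni1, the slow troponin I, 0.61 ± 0.24. The gene below 0 was Myh7b, a myosin heavy chain gene whose values are given with the opposite responses. The difference between fast and slow lists was not tested.

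Of 29 tested genes of excitation and calcium release, 6 were above 0 (4.86% of all genes) and 1 below 0 (3.02%) at an unadjusted p under 0.05. Their median was 0.15, which was 0.050 without the second control array at 1 mM, 0.23 without the first control array at 1 mM or the second at 10 mM, and 0.37 with the 60th percentile filter. Srl, the sarcoplasmic reticulum protein sarcalumenin, read 7.69 and 7.85 then 8.93 and 9.10 in control cells and 5.55 and 5.89 then 7.89 and 8.04 in knockdown cells. The knockdown arrays lay below the control arrays at each glucose level. Srl rose in both, and the interaction was 1.00 ± 0.23 (adjusted p = 0.417). Chrng, the fetal acetylcholine receptor subunit, had an interaction of 0.85 ± 0.23. Musk, the kinase that organises the neuromuscular synapse, had one of 0.64 ± 0.19 and differed in form. It fell by 0.67 in control cells, and its change of -0.03 in knockdown cells was not called.

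**Figure D3:**
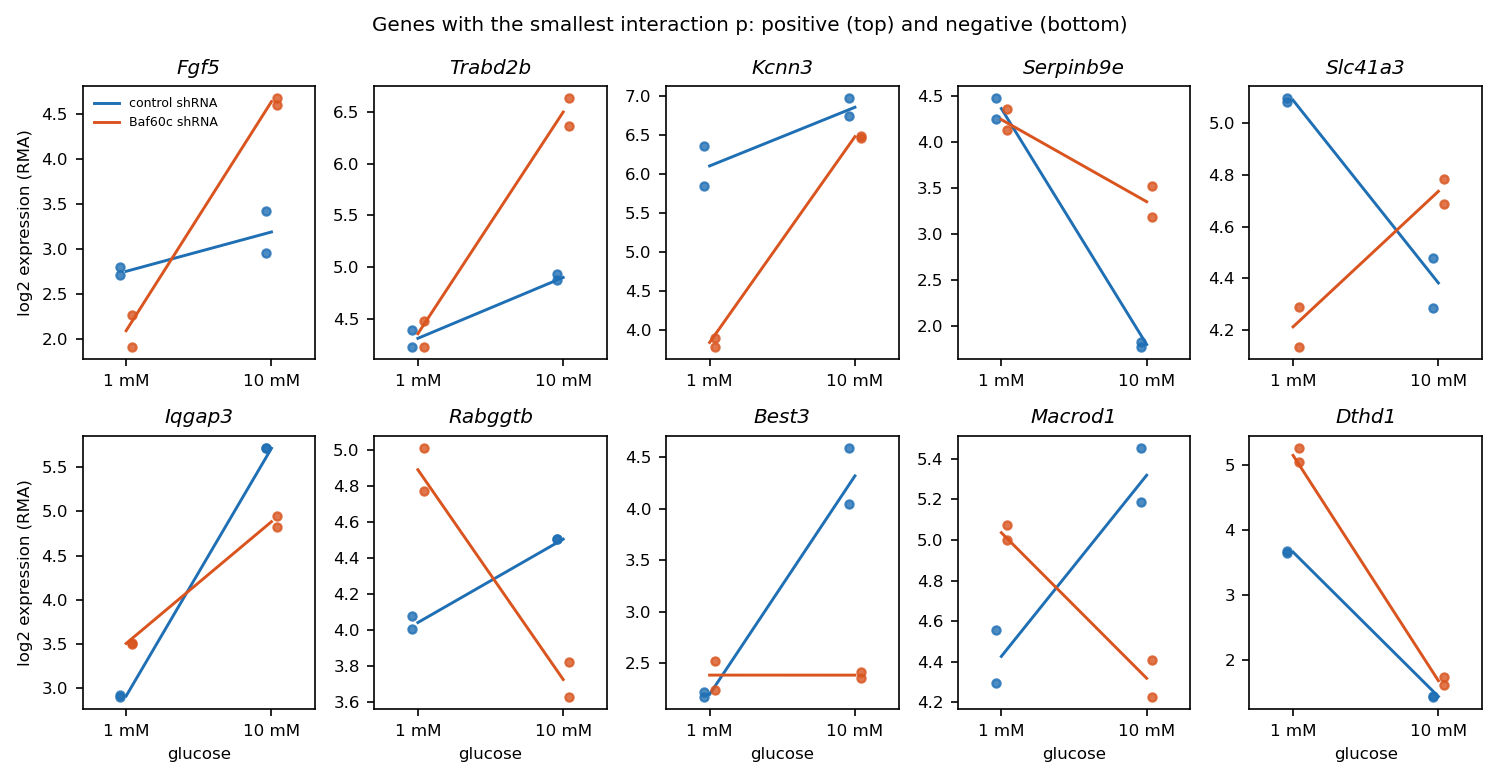
Log2 expression on each of the 8 arrays (points) for the genes with the smallest unadjusted interaction p in each direction, by glucose concentration (horizontal axis, mM) with control cells in blue and knockdown cells in orange and a separate vertical scale per gene; lines join the group means of 2 samples. Only named genes are shown, so predicted genes, clone names and the other skipped classes are left out. Fgf5 in knockdown cells at 10 mM reads 4.60 and 4.68, above the other 6 arrays, and Iqgap3 rises less in knockdown than in control cells.

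Among single genes, the smallest p-values above 0 belonged to genes outside the contractile lists, and none of them was called. Fgf5, a fibroblast growth factor, read 2.71 and 2.80 then 3.43 and 2.95 in control cells, and 2.27 and 1.92 then 4.60 and 4.68 in knockdown cells. The knockdown arrays at 10 mM were the highest of the 8. The interaction was 2.11 ± 0.28 (95% interval 1.46 to 2.75, adjusted p = 0.235). Trabd2b, a membrane protease that inactivates Wnt ligands, read 4.23 and 4.39 then 4.87 and 4.93 in control cells, and 4.23 and 4.48 then 6.37 and 6.63 in knockdown cells. The cell populations overlapped at 1 mM and separated at 10 mM, and the interaction was 1.56 ± 0.22 (adjusted p = 0.235). Kcnn3, a calcium-activated potassium channel, read 5.85 and 6.36 then 6.97 and 6.74 in control cells, and 3.89 and 3.78 then 6.47 and 6.49 in knockdown cells. Its gap between cell populations was -2.27 at 1 mM and called, and -0.38 at 10 mM and not called. The interaction was 1.89 ± 0.27 (adjusted p = 0.235).

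Serpinb9e, of the serine protease inhibitor family, belonged to the genes that glucose lowered. It read 4.48 and 4.26 then 1.82 and 1.77 in control cells, and 4.13 and 4.36 then 3.52 and 3.18 in knockdown cells. It fell by 2.57 in control and by 0.89 in knockdown cells, and the interaction was 1.68 ± 0.24 (adjusted p = 0.235). Serpinb9e was dim in control cells at 10 mM, with a group mean of 1.80. The other genes on this side include Vgll2, a muscle cofactor of TEAD factors (1.23 ± 0.19), Cd200, a surface glycoprotein (1.91 ± 0.30), and Txlnb, a taxilin found in muscle (1.26 ± 0.21). Tbc1d8, of the TBC domain family, had an interaction of 1.05 ± 0.18, and Bmf, a BH3-only cell death protein, 1.44 ± 0.25. Npr3, the natriuretic peptide clearance receptor, fell by 2.22 in control cells, while its change of -0.09 in knockdown cells was not called, an interaction of 2.13 ± 0.37 (adjusted p = 0.324). Vgll2, Txlnb, Tbc1d8 and Bmf rose in knockdown cells and were not called in control cells. Their changes in control cells were 0.41, 0.14, 0.39 and 0.22, in that order. The limma adjusted p-values of these changes were 0.0645, 0.536, 0.0589 and 0.405, so Vgll2 and Tbc1d8 lay close to the threshold.

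On the other side, Iqgap3, a scaffold protein of dividing cells, had the smallest p of all named genes. It read 2.92 and 2.90 then 5.72 and 5.72 in control cells, and 3.51 and 3.50 then 4.82 and 4.94 in knockdown cells. Knockdown arrays lay above the controls at 1 mM and below them at 10 mM. It rose by 2.81 in control and by 1.38 in knockdown cells, and the interaction was -1.43 ± 0.17 (95% interval -1.82 to -1.03, adjusted p = 0.235). Its knockdown difference was called at 10 mM (-0.83) and not at 1 mM (0.60). Best3, a bestrophin chloride channel, read 2.18 and 2.22 then 4.05 and 4.58 in control cells, and 2.25 and 2.53 then 2.36 and 2.41 in knockdown cells. Only the control arrays at 10 mM lay above 3, and the interaction was -2.12 ± 0.28 (adjusted p = 0.235). Dthd1, which carries a death domain, fell in both cell populations. Its values were 3.64 and 3.68 then 1.44 and 1.44 in control cells and 5.04 and 5.26 then 1.75 and 1.62 in knockdown cells. The knockdown arrays were higher at each level, by 1.49 at 1 mM, which was called, and by 0.24 at 10 mM, which was not. Dthd1 was dim at 10 mM, with group means of 1.44 in control and 1.69 in knockdown cells. The interaction was -1.24 ± 0.19 (adjusted p = 0.289).

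The remaining genes named on this side were Trp53i11, a p53-induced gene (-2.22 ± 0.35), Piga, an enzyme of GPI anchor synthesis (-1.09 ± 0.18), and Angpt4, an angiopoietin (-1.54 ± 0.27). Trp53i11 rose in control cells by 2.31, and its change of 0.09 in knockdown cells was not called. Defa40, a defensin, had an interaction of -1.45 ± 0.27, Rab39b, a small GTPase, -1.44 ± 0.28, Mok, a protein kinase, -0.99 ± 0.20, and Epha4, an ephrin receptor, -1.20 ± 0.24. Their adjusted p-values ran from 0.291 for Trp53i11 to 0.417 for Epha4. Defa40 was dim: 3 of its 4 group means lay below 3, and only that of knockdown cells at 1 mM, 4.32, lay above.

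Opposite responses, called in each glucose contrast with different signs, occurred in 6 genes (0.0451% of those tested). The choice of these genes fixes the sign of their interaction, which is given as a description. Rabggtb, the beta subunit of the enzyme that prenylates Rab proteins, read 4.08 and 4.0 then 4.50 and 4.50 in control cells, and 4.77 and 5.01 then 3.63 and 3.82 in knockdown cells. It rose by 0.46 in control cells and fell by 1.17 in knockdown cells. Macrod1, a mitochondrial hydrolase of ADP-ribose derivatives, read 4.30 and 4.56 then 5.19 and 5.45 in control cells, and 5.07 and 5.0 then 4.23 and 4.41 in knockdown cells. It rose by 0.89 and fell by 0.72. Myh7b, which also hosts a microRNA, read 2.58 and 2.49 then 3.30 and 3.30 in control cells, and 2.78 and 2.86 then 2.06 and 2.43 in knockdown cells. It rose by 0.77 and fell by 0.58, and 3 of its 4 group means lay below 3.

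The other opposite genes fell in control and rose in knockdown cells. Slc41a3, a magnesium transporter, read 5.08 and 5.09 then 4.29 and 4.48 in control cells, and 4.14 and 4.29 then 4.69 and 4.78 in knockdown cells. It fell by 0.71 and rose by 0.52. The unnamed transcript 1810014B01Rik read 4.74 and 4.68 then 4.37 and 4.09 in control cells, and 3.83 and 4.0 then 4.53 and 4.49 in knockdown cells. Knockdown arrays lay below the controls at 1 mM and above them at 10 mM in both. Of these knockdown differences, only that of Slc41a3 at 1 mM was called. B330016D10Rik read 4.42 and 4.52 then 3.92 and 3.82 in control cells, and 3.61 and 3.42 then 4.01 and 4.14 in knockdown cells, the same form. Its knockdown difference was called at 1 mM and not at 10 mM. The interactions of these 6 genes ran from -1.63 ± 0.20 for Rabggtb to 1.23 ± 0.19 for Slc41a3, and their adjusted p-values from 0.235 to 0.400. The count of 6 moved between 1 and 11 when 1 array was left out. Without a control array at 1 mM it was 7 or 3, and without one at 10 mM 10 or 3. Without a knockdown array at 1 mM it was 11 or 5, and without one at 10 mM 1 or 5, replicate 1 first in each pair.

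Cell division genes rose with glucose in both cell populations. Of 34 tested, 26 rose in control cells (13.2% of all genes) and 28 in knockdown cells (14.5%), with median changes of 1.85 and 1.60. The median interaction was -0.05 and changed sign between alternatives (-0.12 to 0.029), and 3 genes were below 0 at an unadjusted p under 0.05, against 3.02% of all genes. Aspm, a spindle pole protein, read 2.96 and 2.70 then 6.41 and 6.35 in control cells, and 3.22 and 3.70 then 5.96 and 5.96 in knockdown cells. Knockdown arrays lay above the controls at 1 mM and below them at 10 mM, and the interaction was -1.05 ± 0.26 (adjusted p = 0.417). Neither knockdown difference of Aspm was called. Top2a, a DNA topoisomerase, and Kif20a, a mitotic kinesin, had interactions of -0.73 ± 0.23 and -0.70 ± 0.23.

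Among 30 tested myokines and other secreted factors, 2 had an interaction above 0 and 5 one below 0 at an unadjusted p under 0.05, against 4.86% and 3.02% of all genes. The median of 0.07 was 0.20 without the first control array at 10 mM or the second knockdown array at 1 mM, and -0.032 without the second control array at 10 mM, so it has no settled sign. Angptl4, an inhibitor of lipoprotein lipase, read 4.57 and 4.54 then 5.68 and 5.67 in control cells, and 5.34 and 5.57 then 5.68 and 5.64 in knockdown cells. The populations met at 10 mM and differed at 1 mM, and the interaction was -0.92 ± 0.18 (adjusted p = 0.417). Fst, the activin and myostatin antagonist follistatin, read 5.21 and 5.03 then 7.25 and 7.23 in control cells, and 3.97 and 3.67 then 5.05 and 4.93 in knockdown cells. Unlike the medians of the contractile lists, its knockdown difference was larger at 10 mM (-2.25) than at 1 mM (-1.30), both called. The interaction was -0.95 ± 0.21 (adjusted p = 0.417). Vegfc, a lymphatic growth factor, had an interaction of 1.05 ± 0.27 and rose in knockdown cells.

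Of 36 tested matrix genes, 4 had an interaction above 0 (4.86% of all genes) and none below 0 (3.02%) at an unadjusted p under 0.05. The median was 0.10, against 0.04 for all genes, and it was 0.046 without the first control array at 10 mM. Thbs1, the matricellular protein thrombospondin, read 9.52 and 9.54 then 11.23 and 11.17 in control cells, and 9.26 and 9.51 then 12.12 and 12.12 in knockdown cells. The knockdown arrays were the highest at 10 mM and lay below the controls at 1 mM. The knockdown difference was 0.93 at 10 mM and called, and -0.15 at 1 mM and not called. Thbs1 rose by 1.67 in control and by 2.74 in knockdown cells, and the interaction was 1.07 ± 0.19. Col4a2, a basement membrane collagen chain, and Col12a1, a fibril-associated collagen, had interactions of 0.76 ± 0.25 and 0.51 ± 0.19.

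Of 20 tested immediate early genes, 4 lay below 0 (3.02% of all genes) and 1 above 0 (4.86%) at an unadjusted p under 0.05. The median was -0.05 and ran from -0.14 to -0.0079 when 1 array was left out. Nr4a3, an orphan nuclear receptor, was dim, at 2.31 and 2.08 then 2.37 and 2.59 in control cells and 3.05 and 2.82 then 1.95 and 2.26 in knockdown cells. All 4 group means of Nr4a3 lay below 3, and its interaction was -1.11 ± 0.25 (adjusted p = 0.417). Egr3, a zinc finger factor, had an interaction of -1.24 ± 0.33, and Fosl2, an AP-1 subunit, 0.55 ± 0.17. In the interferon list of 19 genes, 2 lay below 0 at an unadjusted p under 0.05 (3.02% of all genes). The median was -0.22, which was -0.041 without the second control array at 10 mM and -0.14 without the first knockdown array at 1 mM. Tap1, a peptide transporter for antigen presentation, read 3.26 and 3.48 then 4.01 and 3.17 in control cells, and 3.47 and 3.70 then 2.81 and 2.77 in knockdown cells. Its control replicates at 10 mM lay far apart, and the interaction was -1.01 ± 0.37 (adjusted p = 0.590). Usp18, which removes ISG15 from proteins, had an interaction of -0.73 ± 0.31.

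Of 25 glycolysis and lactate genes, 3 lay above 0 at an unadjusted p under 0.05, against 4.86% of all genes, and 20 intervals lay inside 2-fold, against 67.1%. The median of -0.03 changed sign between alternatives (-0.076 to 0.081). The 3 were Pfkm, Pygm, the muscle glycogen phosphorylase (0.97 ± 0.35), and Eno3, the muscle enolase (0.51 ± 0.20), and the knockdown lowered all 3 at 1 mM. All 3 are also members of the fast fibre list and are counted there too. Of 32 genes of the Deptor, AKT and mTOR pathway, 2 lay above 0 at that p (4.86% of all genes). In that list, 25 intervals lay inside 2-fold, against 67.1% of all genes. The median was 0.08 and ran from 0.0036 to 0.13 when 1 array was left out. Deptor read 8.33 and 8.69 then 9.23 and 9.37 in control cells, and 7.55 and 7.83 then 8.91 and 9.0 in knockdown cells. It rose by 0.79 and by 1.26, and the knockdown arrays lay below the controls at both levels. Its interaction was 0.48 ± 0.24 with a 95% interval of -0.09 to 1.04 (adjusted p = 0.693), and a second probe set gave 0.58 ± 0.21 (adjusted p = 0.590). Igf1r, the receptor for insulin-like growth factors, read 7.88 and 7.86 then 7.92 and 7.82 in control cells, and 7.49 and 7.37 then 8.09 and 7.95 in knockdown cells. It rose in knockdown cells and was not called in control cells, and the interaction was 0.59 ± 0.18 (adjusted p = 0.541). Igfbp5, which binds these growth factors, had an interaction of 0.62 ± 0.24.

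Of 23 other tested genes of the BAF complex, 2 lay above 0 at an unadjusted p under 0.05 (4.86% of all genes), and 20 intervals lay inside 2-fold (67.1%). The median was 0.09, and 0.0035 without the second control array at 1 mM or 0.012 without the second knockdown array at 10 mM. Smarcc1, a core scaffold subunit, read 8.79 and 8.77 then 8.64 and 8.58 in control cells, and 8.61 and 8.60 then 9.0 and 8.87 in knockdown cells. Knockdown arrays lay below the controls at 1 mM and above them at 10 mM, and the interaction was 0.51 ± 0.17 (adjusted p = 0.585). Neither knockdown difference of Smarcc1 was called. Actb, which encodes an actin found in the complex and in the cytoskeleton, had an interaction of 0.93 ± 0.34. In the cholesterol and fatty acid list of 19 genes, limma gave 0 members at an unadjusted p under 0.05 (7.88% of all genes). The median was -0.03, and 15 intervals lay inside 2-fold, against 67.1% of all genes.

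**Figure D4:**
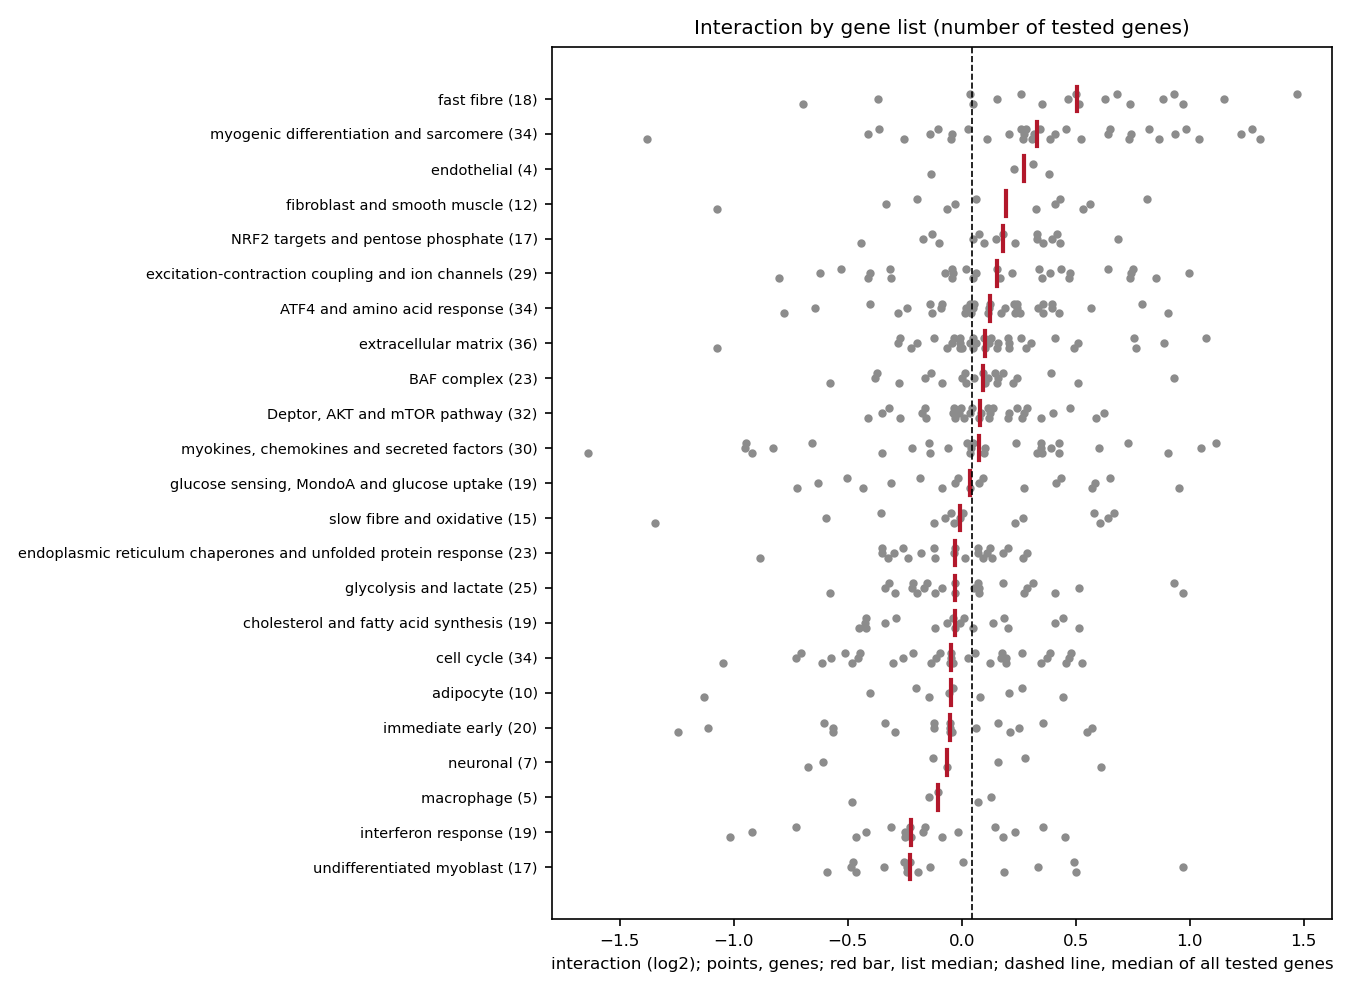
Interaction (log2, horizontal axis) of every tested member (points) of the 23 gene lists, with the list median as a red bar; the dashed line marks the median of all tested genes, 0.04. The medians of the sarcomere and fast fibre lists, 0.33 and 0.51, lie furthest above 0 among the pathway lists, and the other pathway medians lie between -0.22 and 0.18 with all arrays. The interferon median at the lower end was -0.041 without the second control array at 10 mM.

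Lists of genes commonly used as cell type markers were also examined. As C2C12 is a single myoblast line, signal from the non-myoblast markers is not taken as presence of those cells. Of 18 undifferentiated myoblast markers, 17 were tested, and their median per array lay between 6.41 and 6.73 in all groups. Their median interaction was -0.23, with 1 above and 2 below 0 at an unadjusted p under 0.05, against 4.86% and 3.02% of all genes. Hey1, a Notch target, read 5.37 and 5.54 then 5.87 and 6.22 in control cells and 5.76 and 5.85 then 5.88 and 5.73 in knockdown cells. Its groups overlapped in part, and its interaction was -0.59 ± 0.23 (adjusted p = 0.590). Itga7, a laminin receptor of muscle cells, had 0.49 ± 0.19, and Hes1, another Notch target, -0.48 ± 0.19. The part of myoblast number in the contractile gene values was not tested.

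Of 13 fibroblast and smooth muscle markers, 12 were tested, with a median per array of 5.56 to 5.70 in control cells at 1 mM, 6.96 to 7.07 at 10 mM, 5.49 to 5.90 in knockdown cells at 1 mM, and 7.65 to 7.67 at 10 mM. The median interaction was 0.19, and with limma 0 of the 12 were past an unadjusted p of 0.05. That median was 0.072 without the first and 0.34 without the second knockdown array at 1 mM, 0.12 without the second control array at 1 mM, 0.29 without the second at 10 mM, and 0.42 with the 60th percentile filter. The part of these transcripts in the matrix gene values was not tested. Of 12 adipocyte markers 10 were tested, and Fabp4 and Cidec lay below the filter. Pnpla2, a triglyceride lipase, read 7.04 and 7.04 then 6.26 and 6.12 in control cells and 6.64 and 6.81 then 6.34 and 6.30 in knockdown cells, an interaction of 0.44 ± 0.18 (adjusted p = 0.608). The fall in control cells was called and the change of -0.41 in knockdown cells was not, with a limma adjusted p of 0.0546. Macrophage markers were near the bottom of the scale, with 5 of 9 tested, array medians of 2.62 to 3.13, and Adgre1, Csf1r, Itgam and Lyz2 below the filter. Of 8 endothelial markers 4 were tested, and Pecam1, Kdr, Tie1 and Emcn were below it. Of 8 neuronal markers 7 were tested. Map2, a microtubule protein also present in myotubes, read 5.26 and 5.13 then 6.14 and 6.45 in control cells and 5.56 and 5.69 then 6.10 and 6.0 in knockdown cells, with an interaction of -0.67 ± 0.21 (adjusted p = 0.553).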

How the data were processed

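Affymetrix Mouse Gene ST 2.1 arrays were hybridised with total RNA from 8 C2C12 samples. The deposited values are log2 expression for 41345 probe sets, which per the submitters' processing notes the authors made with RMA in affy; the version and the genome build of the probe design are not given in the sources used here. RMA brings arrays to a common distribution, so a change shared by all transcripts is not visible, and it compresses differences of dim genes.

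Gene names came from the platform annotation: 23521 probe sets had 1 gene, 1814 several and 16010 none. Gene IDs of 23328 matched the RefSeq table. Of 22180 genes, 1082 had more than 1 probe set and were represented by the one with the highest mean. Genes with a mean below the 40th percentile (2.30) were left out, which left 13308. The shared Smarcd3 probe set was fitted beside them.

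A model with 1 mean per group over all 8 arrays was fitted with limma 3.58.1 (lmFit and eBayes) in R 4.3.3, leaving 4 residual and 3.36 prior degrees of freedom. All p-values are two-sided, with Benjamini-Hochberg adjustment across the 13308 genes; "called" means an adjusted p under 0.05. Intervals are 95% intervals from the same fit. The p-values weigh each difference against the spread between replicate samples, pooled over the 4 groups and moderated across genes. They do not extend to other cell lines or other shRNAs. The script was tested on simulated data. Sequences come from RefSeq (GRCm38.p6).

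The comparison, the 23 gene lists and the tests were chosen with earlier results of these data known, so the lists are described by counts and medians and have no test of their own. Named genes are the 12 per direction with the smallest unadjusted p, up to 3 per list by smallest p where that was under 0.05, all genes with opposite calls, and Smarcd3, Deptor, Txnip and Slc2a4. For the first part, predicted genes, clone names, small RNAs, olfactory, vomeronasal and taste receptors, and genes with a highest group mean below 4 were skipped. Alternatives were other filters, centring, quantile normalization, the mean of a gene's probe sets, limma with trend and robust variances, a replicate block, an adjusted p under 0.1, a 2-fold minimum, leaving out each array, and, added after seeing the data, each probe set on its own.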

Additional observations from a re-analysis of the deposited data

How the results depend on the processing

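The interaction count stayed at 0 under the alternatives run, with 8872 to 22937 genes or probe sets tested, except limma with trend and robust variances, which called 1 gene, Thbs1. This includes an adjusted p under 0.1, applied only to the fit as used throughout, and each probe set on its own, where the smallest adjusted p was 0.105. With the 60th percentile filter the smallest limma adjusted p was 0.0828, which is under 0.1. With the replicate block the count was 0 and the smallest adjusted p 0.334. Deviations of same-numbered samples correlated between -0.04 and 0.11. The labels name no covariate, and these values cannot tell whether same-numbered samples were handled together. The count below 0 at an unadjusted p under 0.05 was 627 without a filter, 253 with the 60th percentile and 765 with each probe set on its own.

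The knockdown count at 1 mM was 437 with the 60th percentile, 598 with trend and robust variances and 66 with each probe set on its own. At 10 mM it was 69 without a filter, 291, 467, 73 with the replicate block, and 6. Opposite calls numbered 2 without a filter, 2 with the 60th percentile and 3 with trend and robust variances. The cause of these moves was not tested. Leaving out each array in turn gave 2051 to 3264 glucose calls in control cells, 1894 to 3188 in knockdown cells, 30 to 129 knockdown calls at 1 mM, 0 to 77 at 10 mM, and 1 to 11 opposite calls. At an unadjusted p it gave 763 to 1219 interaction genes, 454 to 696 above and 309 to 523 below 0. The median interaction ran from 0.30 to 0.42 in the sarcomere list, with 9 to 14 members past an unadjusted p of 0.05, and from 0.48 to 0.70 in the fast fibre list, with 3 to 9 members.

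Of 73 named genes, 72 kept their sign under the alternatives in which they were tested, which leaves out each probe set on its own. The 60th percentile filter kept 50 of the 73. The exception was Slc2a4, which ran from -1.54 to 0.092 when 1 array was left out. The endothelial list had no value under the 60th percentile filter. Dim genes, with means near 3, are the least certain.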

Other observations

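Probe sets without a single gene name entered none of the comparisons. Of these, 8926 were fitted with each probe set on its own, and 781 had an interaction at an unadjusted p under 0.05. With limma, 0 of them passed the adjusted test.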
